A study of Mus musculus with 2 samples.

Results

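Foxp3 regulatory T cells (Tregs) were examined in single-cell RNA-seq libraries of cells recovered from scaffolds that had been placed in a skull defect of mice. A barcode counted as a Treg if it had at least 1000 unique molecular identifiers (UMIs, each a counted RNA molecule) and under 20% mitochondrial UMIs. The barcode needed at least 2 UMIs over the T cell genes Cd3d, Cd3e and Cd3g, and at least 1 UMI of Foxp3. It also had no UMI of the gamma-delta T cell genes Trdc and Cd163l1, at most 1 UMI of the macrophage gene Csf1r, and under 0.5% of its UMIs from the neutrophil genes S100a8 and S100a9. The members were thus chosen by their UMIs of these genes, whose values are no result here. This found 126 Tregs among 15360 deposited barcodes, 63 of 7515 in the Gel50_CS50 library and 63 of 7845 in the Gel100 library. Both groups were female Balb/c mice aged 6 weeks with a drilled cranial hole of 3.5 mm. The hole was filled with a cell-free scaffold, named Gel50_CS50 in one group and Gel100 in the other, and cells were taken out at week 1. The labels do not say what the 2 names mean. Each library was made from 5 mice whose cells were pooled before loading, and the mice cannot be told apart, so each scaffold had 1 sample. No group without a scaffold was analysed here.

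Tregs are CD4 T cells that express the transcription factor Foxp3 and restrain other immune cells. They bind interleukin-2 through the receptor chain Il2ra, compete for costimulation with Ctla4, and release the inhibitory cytokine Il10. In injured tissue, a form of Treg that carries the interleukin-33 receptor Il1rl1 (ST2) and secretes the growth factor amphiregulin (Areg) is known to take part in repair. The series title places the scaffolds in a study of crosstalk between immune and stem cells in bone regeneration.

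The Gel50_CS50 library held 150311308 UMIs and the Gel100 library 108847835 UMIs. Cells with at least 1000 UMIs and under 20% mitochondrial UMIs numbered 7294 in Gel50_CS50, with a median of 16954 UMIs, and 6899 in Gel100, with a median of 14206. Tregs had a median of 10421 UMIs in Gel50_CS50 and 8909 in Gel100. The 2 libraries shared 24 barcode sequences, which included 0 Tregs of Gel50_CS50 and 1 of Gel100. The doublet caller Scrublet marked 192 barcodes of Gel50_CS50 and 179 of Gel100, among them 2 Tregs of Gel50_CS50 and 0 of Gel100, and none was removed. By a separate count, 4 Tregs of Gel50_CS50 and 2 of Gel100 carried at least 10 UMIs of the markers of another cell type. The 4 include the 2 Tregs that Scrublet marked. One Gel50_CS50 barcode held 2131 UMIs of collagen and other stromal markers among 53487 in all. Plasmacytoid dendritic cell markers reached 125 UMIs in 1 Gel50_CS50 Treg and up to 179 UMIs in the 2 Gel100 Tregs. These 6 mixed barcodes hold 15.6% of the Treg UMIs in Gel50_CS50 and 7.77% in Gel100. Sums over Tregs are therefore also given without them where they matter.

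The markers of the cells matched their label. In addition to Foxp3, which chose them, Il2ra was found in 96.8% of Gel50_CS50 and 93.7% of Gel100 Tregs, Ctla4 in 98.4% and 100%, and Tnfrsf4 (OX40) in 90.5% and 90.5%. All 3 were found together in 87.3% of Gel50_CS50 and 84.1% of Gel100 Tregs. Foxp3 UMIs per Treg ranged from 1 to 24 with a median of 4 in Gel50_CS50, and from 1 to 21 with a median of 4 in Gel100. The same gate without Foxp3 held 230 cells in Gel50_CS50 and 277 in Gel100, where the 3 genes were found together in 2.61% and 2.53%. In droplet data, free RNA puts stray UMIs into any cell. Macrophage-like cells (Csf1r at least 5 UMIs, no Cd3 UMI), which should lack these genes, held a Foxp3 UMI in 0.357% of 2805 cells in Gel50_CS50 and 0.144% of 2082 cells in Gel100, at medians of 21177 and 19076.5 UMIs. Tnfrsf4 was found in 0.677% and 0.624% of the macrophage-like cells, Il2ra in 2.17% and 3.07%, and Ctla4 in 3.74% and 2.74%. Of the markers of other cell types, those of macrophages were found in every Treg, at a sum of 569 CPM (UMIs per 1000000) in Gel50_CS50 and 414 CPM in Gel100, against 30294 and 26377 CPM in macrophage-like cells, and all 8 were detected. Endothelial markers were found in 68.3% and 55.6% of Tregs, at 307 and 219 CPM, mostly as Pecam1, which leukocytes also express. Cd8a or Cd8b1 UMIs were found in 17.5% and 7.94% of Tregs. Mast cell markers Cpa3, Mcpt8 and Ms4a2 were at 0 in the Tregs of both libraries.

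The cut on Foxp3 left few cells at its edge. Tregs with a single Foxp3 UMI numbered 5 in Gel50_CS50 and 7 in Gel100. Summed over those cells, Il2ra was at 2951 CPM in Gel50_CS50 and 2321 CPM in Gel100, while in Tregs with 2 or more Foxp3 UMIs it was at 2534 and 1820 CPM. Just outside, cells of the gate with a Cd4 UMI but no Foxp3 UMI had 151 CPM of Il2ra in Gel50_CS50 (42 cells) and 173 CPM in Gel100 (88 cells).

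How many Tregs each scaffold held was read as a share of the library. Tregs made up 0.864% of kept cells in Gel50_CS50 (95% exact Clopper-Pearson interval 0.664 to 1.10) and 0.913% in Gel100 (0.702 to 1.17). The difference was -0.049 percentage points, with a Newcombe interval of -0.365 to 0.262 that spans 0. Among cells of the T cell gate, Tregs were 21.5% of 293 in Gel50_CS50 (16.9 to 26.7) and 18.5% of 340 in Gel100 (14.5 to 23.1), a difference of 2.97 points (-3.25 to 9.28). Not every cell of that gate had a T cell receptor UMI. Of its Foxp3-negative cells, 134 of 230 in Gel50_CS50 and 242 of 277 in Gel100 had a UMI of the T cell receptor constant genes Trac, Trbc1 or Trbc2, and together these Foxp3-negative cells held 34388 and 15794 CPM of stromal markers. All 126 Tregs had such a receptor UMI. Among gate cells with one, Tregs were 32.0% of 197 in Gel50_CS50 (25.5 to 39.0) and 20.7% of 305 in Gel100 (16.3 to 25.6), a difference of 11.3 points (3.49 to 19.3) that lies above 0. The order of the shares thus depends on the denominator. With every cell thinned to 3000 UMIs the share of all cells was 0.552% in Gel50_CS50 and 0.723% in Gel100, and the share of the gate was 17.7% and 15.2%. These intervals cover counting error only and not the spread between mice, and no difference in the Treg share of all cells was detectable at this number of cells.

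**Figure D1:**
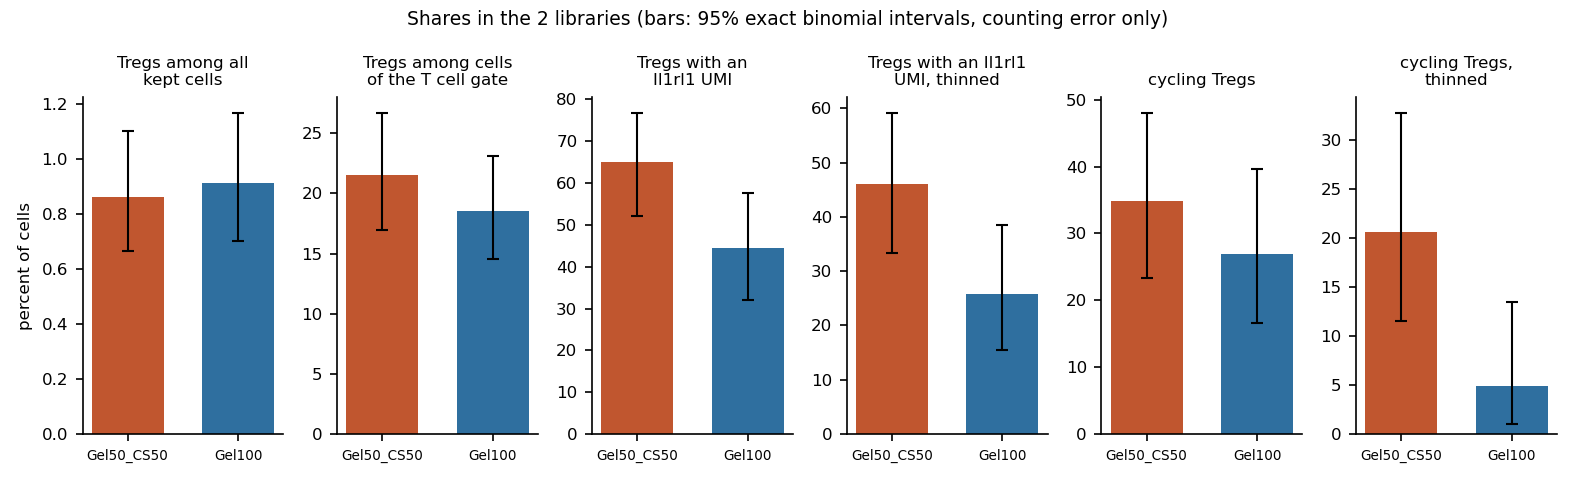
Percent of cells (y axes, each from 0) in the Gel50_CS50 and Gel100 libraries, with exact 95% binomial intervals. The Treg shares of 0.864% and 0.913% overlap closely, while Il1rl1-positive Tregs were 65.1% and 44.4%, and cycling Tregs 34.9% and 27.0% before and 20.6% and 4.84% after thinning to 3000 UMIs.

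The next comparison asked what set Tregs apart from other CD4 T cells of the same scaffolds. The reference was 38 Gel50_CS50 and 81 Gel100 cells of the same gate with at least 1 Cd4 UMI and none of Foxp3, Cd8a, Cd8b1 or Ncr1. Tregs were not filtered on Cd4, Cd8a, Cd8b1 or Ncr1. A Cd4 UMI was found in 51 of 63 Gel50_CS50 and 47 of 63 Gel100 Tregs. UMIs were summed per library and cell group, which gave 4 sums (n = 2 libraries), and tested with edgeR's quasi-likelihood test with the library as a block. Adjusted p-values are Benjamini-Hochberg values over 7606 genes. Of these, 550 were higher in Tregs (7.23%) and 546 lower (7.18%), and 1086 of the 1088 called genes with a UMI in Tregs had that direction in both libraries. The calls were made from these same sums, so this agreement is no separate check. Only 1 residual degree of freedom was left, so the error rests on spread shared between genes. DESeq2 called 195 genes higher and 238 lower of 6279. A level here is a sum over cells, in which fewer cells with a gene and less RNA per cell cannot be told apart. The genes of the gates chose the cells and are no finding.

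Receptors and regulators of the Treg program were higher in Tregs. Of 14 Treg identity genes 12 were tested, and 10 were higher in Tregs and 0 lower, at a median log2 fold of 2.43 against -0.01 over all genes tested. For Il2ra (chr2:11642807-11693193 of mm10), Tregs held 2559.9 CPM in the Gel50_CS50 and 1849 CPM in the Gel100 library, against 198 and 199 CPM in the Foxp3-negative Cd4 T cells of the same 2 libraries (log2 fold 3.36, SE 0.16, edgeR adjusted p 5.2e-05). Both Treg sums were above both reference sums. Ikzf2 encodes the transcription factor Helios, and for this gene Tregs held 3186 CPM in the Gel50_CS50 and 3755 CPM in the Gel100 library, against 318 and 292 CPM in the Foxp3-negative Cd4 T cells of the same 2 libraries (log2 fold 3.44, SE 0.14, edgeR adjusted p 4.3e-05). For Tnfrsf4 (chr4:156013843-156016612), Tregs held 604 CPM in the Gel50_CS50 and 643 CPM in the Gel100 library, against 54.4 and 57.5 CPM in the Foxp3-negative Cd4 T cells of the same 2 libraries (log2 fold 3.40, SE 0.20, edgeR adjusted p 9.7e-05). The related costimulatory receptors Tnfrsf9 (4-1BB) and Tnfrsf18 (GITR) were higher as well. Tnfrsf9 stood at 1194 and 1276 CPM in Gel50_CS50 and Gel100 Tregs, against 59.8 and 171 CPM in the reference cells (log2 fold 3.34, SE 0.29, edgeR adjusted p 3.5e-04). Tnfrsf18 stood at 472 and 519 CPM, against 133 and 158 CPM (log2 fold 1.69, SE 0.18, edgeR adjusted p 8.8e-04).

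Ctla4 (chr1:60887000-60915832) had a smaller fold than Il2ra, and 63.2% of the Gel50_CS50 and 59.3% of the Gel100 reference cells also had a UMI of it. For Ctla4, Tregs held 1294 CPM in the Gel50_CS50 and 1988 CPM in the Gel100 library, against 440.4 and 335 CPM in the Foxp3-negative Cd4 T cells of the same 2 libraries (log2 fold 2.002, SE 0.22, edgeR adjusted p 0.001). Also called were Izumo1r, a folate receptor family member found on Tregs (1.69, adjusted p 0.0073), Ikzf4 (Eos; 3.07, 0.0058), Lrrc32, which anchors latent TGF-beta (2.86, 0.04), and the TNF receptor Tnfrsf1b (0.82, 0.032), all by edgeR. Il2rb, the beta chain of the interleukin-2 receptor, did not pass, at a log2 fold of 0.66 (adjusted p 0.072), and neither did Nrp1 (neuropilin 1), at 0.04 (0.94). DESeq2 called 7 of the 10 genes, lost Tnfrsf1b (0.24) and Izumo1r (0.11) and gave no adjusted p for Lrrc32.

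**Figure D2:**
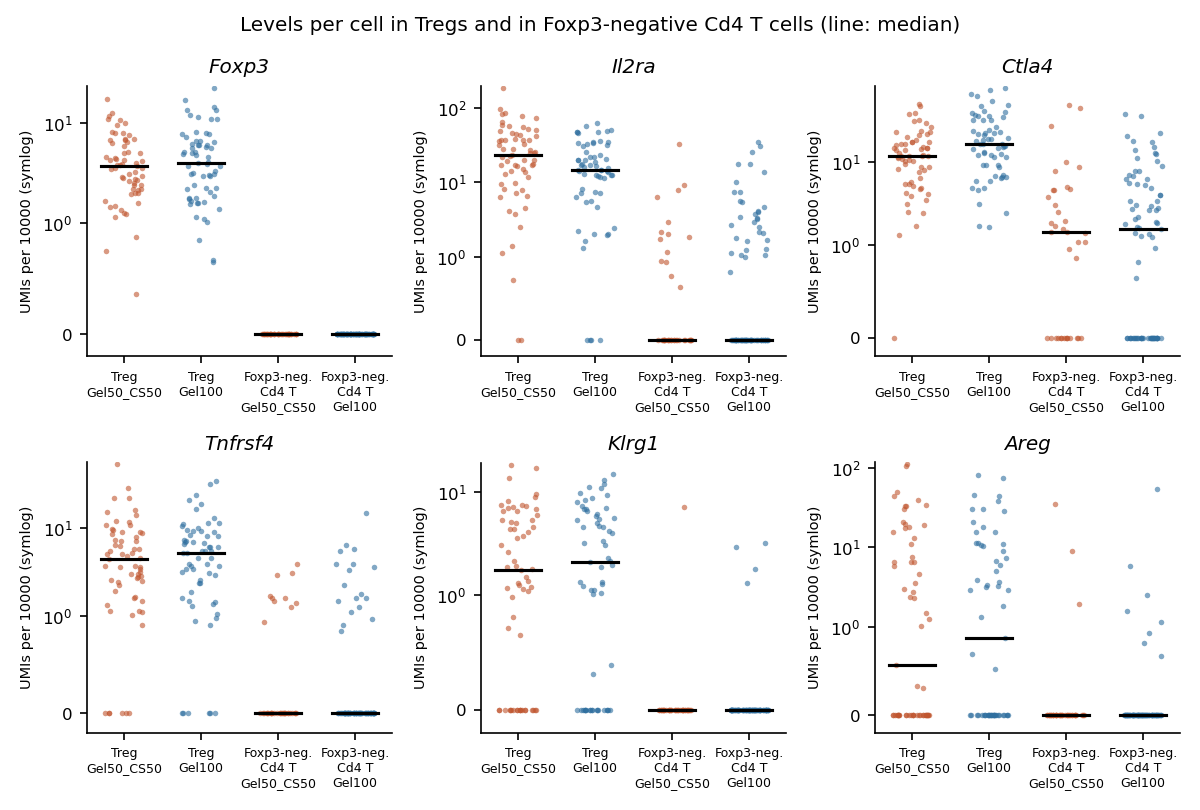
Each point is 1 cell, with UMIs per 10000 on the y axis (linear below 1, logarithmic above) for Tregs and for Foxp3-negative Cd4 T cells of the 2 libraries, and the line is the median. Il2ra and Tnfrsf4 have a median of 0 in the reference cells of both libraries, while Klrg1 and Areg are found in 69.8% and 54.0% of the Tregs of each library.

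The promoters of 4 genes that were higher in Tregs are shown to set the sequence beside the values, 3 of the identity list and Areg. They are from RefSeq (GRCm38.p6, plus strand in all 4) and run 5′ to 3′ from 250 bases before to 50 after the annotated start. Capitals mark letters that match a searched motif on either strand. The Il2ra promoter lies at chr2:11642542-11642841, that of Ctla4 at chr1:60908775-60909074, that of Tnfrsf4 at chr4:156013445-156013744 and that of Areg at chr5:91139349-91139648.
Il2ra: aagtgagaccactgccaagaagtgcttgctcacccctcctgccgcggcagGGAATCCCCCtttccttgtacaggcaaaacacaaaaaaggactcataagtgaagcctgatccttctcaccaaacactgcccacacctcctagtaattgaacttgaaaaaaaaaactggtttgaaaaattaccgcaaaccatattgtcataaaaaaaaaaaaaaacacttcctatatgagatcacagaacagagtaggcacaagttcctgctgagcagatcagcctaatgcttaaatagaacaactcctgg
Ctla4: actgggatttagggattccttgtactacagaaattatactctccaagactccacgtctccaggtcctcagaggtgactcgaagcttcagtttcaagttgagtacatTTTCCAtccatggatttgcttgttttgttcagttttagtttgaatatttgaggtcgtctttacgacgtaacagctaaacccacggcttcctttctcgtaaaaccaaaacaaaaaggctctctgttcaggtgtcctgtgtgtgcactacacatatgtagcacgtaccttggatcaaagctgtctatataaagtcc
Tnfrsf4: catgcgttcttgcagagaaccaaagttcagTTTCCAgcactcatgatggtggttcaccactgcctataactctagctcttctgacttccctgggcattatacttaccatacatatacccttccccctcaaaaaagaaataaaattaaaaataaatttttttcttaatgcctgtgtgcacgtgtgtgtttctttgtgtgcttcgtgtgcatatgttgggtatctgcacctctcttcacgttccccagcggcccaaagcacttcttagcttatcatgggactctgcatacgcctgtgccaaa
Areg: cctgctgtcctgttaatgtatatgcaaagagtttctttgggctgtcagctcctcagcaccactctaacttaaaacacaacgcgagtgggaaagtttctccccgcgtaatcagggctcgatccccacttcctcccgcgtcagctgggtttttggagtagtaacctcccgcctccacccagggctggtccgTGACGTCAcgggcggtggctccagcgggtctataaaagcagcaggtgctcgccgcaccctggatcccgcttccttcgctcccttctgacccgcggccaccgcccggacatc
The 6 motifs searched were forkhead GTAAACA, AP-1 TGANTCA, STAT TTCNNNGAA, CRE TGACGTCA, NFAT TTTCCA and NF-kB (GGG and TTCC separated by any 3 bases). Il2ra held the NF-kB letters at position -200, which 5.56% of all 32851 mouse promoters of this length also hold. Ctla4 and Tnfrsf4 held the NFAT letters at -144 and -220 (21.4% of all promoters). Areg held the palindromic CRE at -61 (1.79% of all promoters). Each of these 4 promoters held 1 match in all. The forkhead letters were in none of the 10 identity genes and none of the 10 of the 15 highest genes that had an entry, against 3.65% of all promoters. They were in 1 of the 11 tissue and repair genes with an entry, Prdm1, and at -117 of the second Il1rl1 start. The counts for these gene sets used only the first listed start of each gene, while the share over all promoters covers every listed start. A match is a description of letters and not a bound site, and a missing match says only that these letters are not in this window.

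Genes by which Tregs inhibit other cells were mostly higher in Tregs. Of 16 genes on the suppression and checkpoint list 14 were tested, 9 were higher and 0 lower, with a median log2 fold of 1.499. For Il10, Tregs held 122 CPM in the Gel50_CS50 and 218 CPM in the Gel100 library, against 21.7 and 62 CPM in the Foxp3-negative Cd4 T cells of the same 2 libraries (log2 fold 1.93, SE 0.27, edgeR adjusted p 0.003). For Ebi3, a subunit of interleukin-35 and interleukin-27, Tregs held 43.6 CPM in the Gel50_CS50 and 50.1 CPM in the Gel100 library, against 5.44 and 2.95 CPM in the Foxp3-negative Cd4 T cells of the same 2 libraries (log2 fold 3.47, SE 0.55, edgeR adjusted p 0.005), and DESeq2 gave 0.053. Entpd1 (CD39), which breaks down extracellular ATP, stood at 172 and 191 CPM in the Tregs of the 2 libraries, against 27.2 and 63.4 CPM (log2 fold 1.88, SE 0.30, edgeR adjusted p 0.0051). Its partner Nt5e (CD73), which makes adenosine, did not pass (-0.26, 0.7).

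Among inhibitory receptors, Lag3 had 47 and 107 CPM in Gel50_CS50 and Gel100 Tregs, against 10.9 and 7.38 CPM in the reference cells (log2 fold 3.11, SE 0.48, edgeR adjusted p 0.0045). Havcr2 (TIM-3) had 42.5 and 63 CPM, against 0 and 7.38 CPM (log2 fold 3.49, SE 0.61, edgeR adjusted p 0.0075), and Tigit was higher by 1.72 (0.019; DESeq2 0.33). Pdcd1 (PD-1) and the costimulator Icos did not pass, at 0.90 (0.16) and -0.20 (0.35). The cytotoxic protease Gzmb was found in 61.9% of Gel50_CS50 and 65.1% of Gel100 Tregs. For Gzmb, Tregs held 371 CPM in the Gel50_CS50 and 663 CPM in the Gel100 library, against 27.2 and 171 CPM in the Foxp3-negative Cd4 T cells of the same 2 libraries (log2 fold 2.40, SE 0.34, edgeR adjusted p 0.0028). Perforin (Prf1), which lets granzymes into a target cell, stood at 10.1 and 10 CPM in Tregs and was too low to test.

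A second group, known from Tregs of non-lymphoid tissue, was also higher. Of its 16 genes, all tested, 10 were higher and 2 lower in Tregs, with a median log2 fold of 1.51. Areg (chr5:91139599-91148432), a ligand of the EGF receptor, was found in 54.0% of the Tregs of both libraries. For Areg, Tregs held 932 CPM in the Gel50_CS50 and 766 CPM in the Gel100 library, against 89.7 and 59 CPM in the Foxp3-negative Cd4 T cells of the same 2 libraries (log2 fold 3.47, SE 0.19, edgeR adjusted p 9.3e-05). Macrophage-like cells held 55.5 CPM in Gel50_CS50 and 18.7 CPM in Gel100. Klrg1 (chr6:122270596-122282882), an inhibitory lectin-like receptor of differentiated T cells, separated the groups further. For Klrg1, Tregs held 332 CPM in the Gel50_CS50 and 341 CPM in the Gel100 library, against 19 and 5.9 CPM in the Foxp3-negative Cd4 T cells of the same 2 libraries (log2 fold 4.86, SE 0.37, edgeR adjusted p 2.6e-04). It was found in 69.8% of the Tregs of each library and in 0.214% and 0.336% of the macrophage-like cells.

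Il1rl1 (chr1:40429570-40465415), the receptor for interleukin-33, was higher in Tregs than in the reference cells of each library. For Il1rl1, Tregs held 367 CPM in the Gel50_CS50 and 136 CPM in the Gel100 library, against 141 and 28 CPM in the Foxp3-negative Cd4 T cells of the same 2 libraries (log2 fold 1.65, SE 0.27, edgeR adjusted p 0.0055). Against all Foxp3-negative cells of the gate it did not pass (adjusted p 0.70 by edgeR). Itgae (CD103), an integrin chain that binds E-cadherin, was at 181 and 264 CPM, against 10.9 and 17.7 CPM (log2 fold 3.85, SE 0.30, edgeR adjusted p 2.6e-04). The transcription factors Batf and Maf, both known in effector Tregs, had log2 folds of 1.47 (0.0033) and 1.32 (0.0013). Pparg, known in Tregs of adipose tissue, was at 177 and 145 CPM, against 0 and 20.7 CPM (log2 fold 3.55, SE 0.57, edgeR adjusted p 0.0051), and DESeq2 gave 0.22. Nfil3 (2.59, 0.0044) and Prdm1 (1.54, 0.013), the gene of Blimp-1, were higher too. Gata3, Rora, Irf4 and Bhlhe40 did not pass, with log2 folds of 0.55, -0.12, 0.85 and -0.65. The 2 lower members were Il18r1, the interleukin-18 receptor, and the protease gene Furin. For Il18r1, Tregs held 176 CPM in the Gel50_CS50 and 138 CPM in the Gel100 library, against 723 and 1024 CPM in the Foxp3-negative Cd4 T cells of the same 2 libraries (log2 fold -2.54, SE 0.23, edgeR adjusted p 4.0e-04). Furin was lower by a log2 fold of -1.23 (0.0088). DESeq2 called 7 of the 10 higher genes and the 2 lower ones, and did not call Prdm1 (adjusted p 0.17), Pparg or Penk. Against all Foxp3-negative cells of the gate 8 of the 10 higher and 0 of the 2 lower calls remained, with Nfil3 lost (edgeR adjusted p 0.063).

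**Figure D3:**
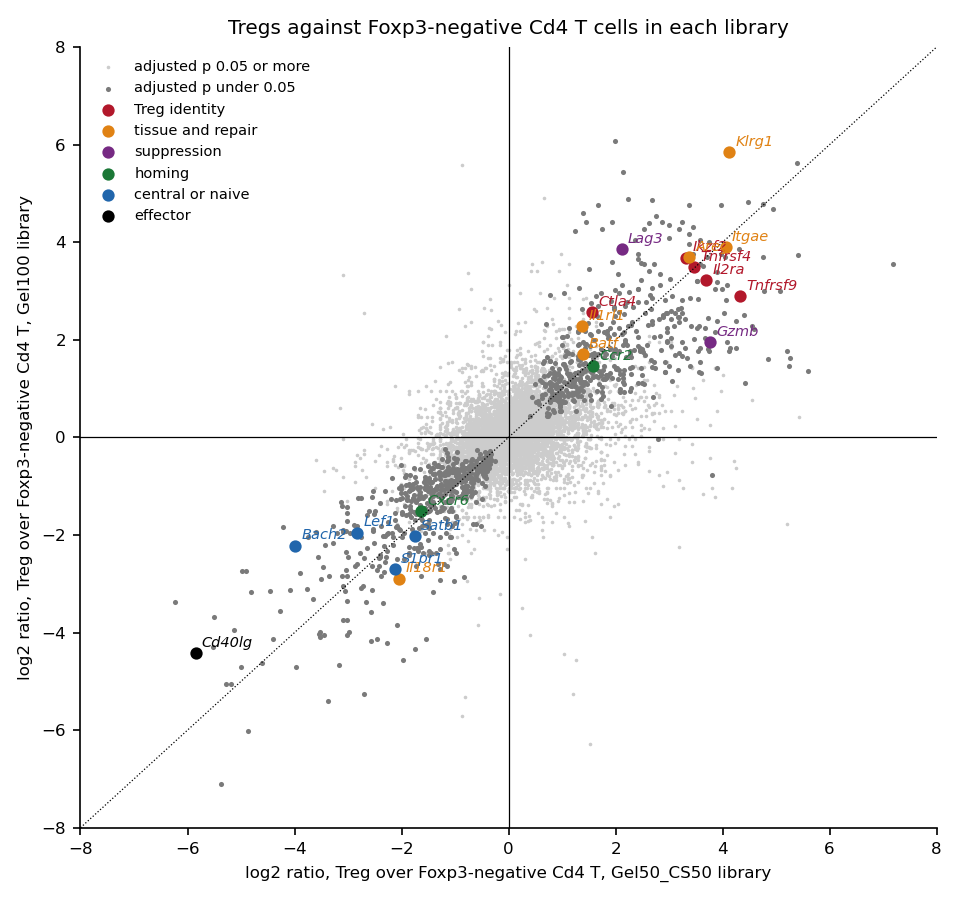
Log2 ratio of CPM in Tregs over Foxp3-negative Cd4 T cells, in the Gel50_CS50 library (x axis) and the Gel100 library (y axis), for tested genes with UMIs in all 4 sums; dark grey genes have an edgeR adjusted p under 0.05. Treg identity and most tissue and repair genes lie at upper right and central or naive genes at lower left, and Il1rl1 and Gzmb keep their sign in both libraries.

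The 15 genes with the highest folds past the test were led by Penk (chr4:4133531-4138819), which encodes the precursor of the opioid peptide enkephalin. Tregs held 166 CPM of Penk in Gel50_CS50 and 50.1 CPM in Gel100, and the reference cells held 0 UMIs in both, which makes it at least 40.1-fold higher at a floor of 3 UMIs over both reference sums (edgeR adjusted p 8.3e-04). It came from 11 Gel50_CS50 and 8 Gel100 cells, and DESeq2 did not call it (adjusted p 0.37). Frmd5, a FERM-domain protein, stood at 247 and 359.6 CPM in Tregs, against 0 and 2.95 CPM (log2 fold 7.19, SE 0.45, edgeR adjusted p 1.1e-04). Grm8, a glutamate receptor, stood at 128 and 178 CPM, against 0 and 2.95 CPM (log2 fold 6.19, SE 0.52, edgeR adjusted p 3.2e-04). Both had 2 UMIs in the reference cells, so their folds are imprecise: the pooled ratio was 155 for Frmd5 (counting interval 42.7 to 1284) and 78.2 for Grm8 (21.4 to 649). Grm8 had 114 UMIs in all Gel50_CS50 Tregs and 124 in all Gel100 Tregs. It fell below the minimum-count filter without mixed barcodes, and also without cycling cells, so no fold is given there. In at least 1 library most of its Treg UMIs thus lay in the few cells left out, and its high fold does not describe Tregs at large. Against all Foxp3-negative cells of the gate Grm8 did not pass (log2 fold 2.26, edgeR adjusted p 0.052).

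Itgb8, whose integrin releases active TGF-beta, was at 230.5 and 337 CPM in Gel50_CS50 and Gel100 Tregs, against 5.44 and 25.1 CPM in the reference cells (log2 fold 4.02, SE 0.34, edgeR adjusted p 3.2e-04). Il1r2, a decoy receptor that binds interleukin-1 without signalling, was at 168 and 189 CPM, against 5.44 and 7.38 CPM (log2 fold 4.65, SE 0.36, edgeR adjusted p 2.6e-04). Lyn, a Src-family kinase, was at 218 and 261 CPM, against 16.3 and 16.2 CPM (log2 fold 3.81, SE 0.29, edgeR adjusted p 2.6e-04). Its fold without the 6 mixed Tregs and 2 mixed reference barcodes was 3.02. The tetraspanin Cd81, the sorting nexin Snx9, the hormone gene Rln3, the methionine sulfoxide reductase Msrb3, the transcription factor Arnt2, and Nckap5 and Srgap3 made up the rest with Klrg1 and Itgae, at log2 folds of 3.77, 4.66, 4.85, 5.02, 4.09, 4.20 and 3.98. Msrb3 was not called by DESeq2 (0.083). Against all Foxp3-negative cells of the gate, Msrb3 (log2 fold 0.39), Srgap3 (0.65), Snx9 (1.04) and Cd81 (-0.15) did not pass. Their edgeR adjusted p there was 0.63, 0.36, 0.090 and 0.83, while Rln3, Arnt2 and Nckap5 stayed called as higher.

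Receptors that place T cells in tissue moved in both directions. Of 20 homing genes 18 were tested, 6 were higher and 8 lower in Tregs, and the median log2 fold was -0.38. Ccr2, the receptor for monocyte-attracting chemokines, was found in 92.1% and 79.4% of the Tregs of the 2 libraries. For Ccr2, Tregs held 632 CPM in the Gel50_CS50 and 682 CPM in the Gel100 library, against 212 and 248 CPM in the Foxp3-negative Cd4 T cells of the same 2 libraries (log2 fold 1.44, SE 0.16, edgeR adjusted p 0.0011). Ccr8, a receptor typical of Tregs in skin and tumours, was at 30.2 and 35.8 CPM in Tregs, against 2.72 and 8.85 CPM (log2 fold 2.30, SE 0.55, edgeR adjusted p 0.026), and no macrophage-like cell had a Ccr8 UMI, which allows shares of up to 0.131% and 0.177%. Ccr6 (4.01, 0.0085) and Cd44 (0.64, 0.021) were also higher. Lower in Tregs were Cxcr6 and Cxcr3, receptors of type 1 T cells. Cxcr6 was at 81.7 and 88.8 CPM in Tregs, against 253 and 252 CPM (log2 fold -1.64, SE 0.21, edgeR adjusted p 0.0018), and Cxcr3 at 36.9 and 27.2 CPM, against 103 and 98.8 CPM (log2 fold -1.73, SE 0.29, edgeR adjusted p 0.0062). The integrin beta-1 chain Itgb1 was lower (-1.999, 0.012), as were Itga4 (-0.67, 0.04), the oxysterol receptor Gpr183 (-1.45, 0.0024) and Cxcr4 (-1.02, 0.041). The Cxcr4 call was lost without mixed barcodes (adjusted p 0.067). DESeq2 called 2 of the 6 higher and 3 of the 8 lower genes, and against all Foxp3-negative cells of the gate 1 of the 8 lower calls remained.

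**Figure D4:**
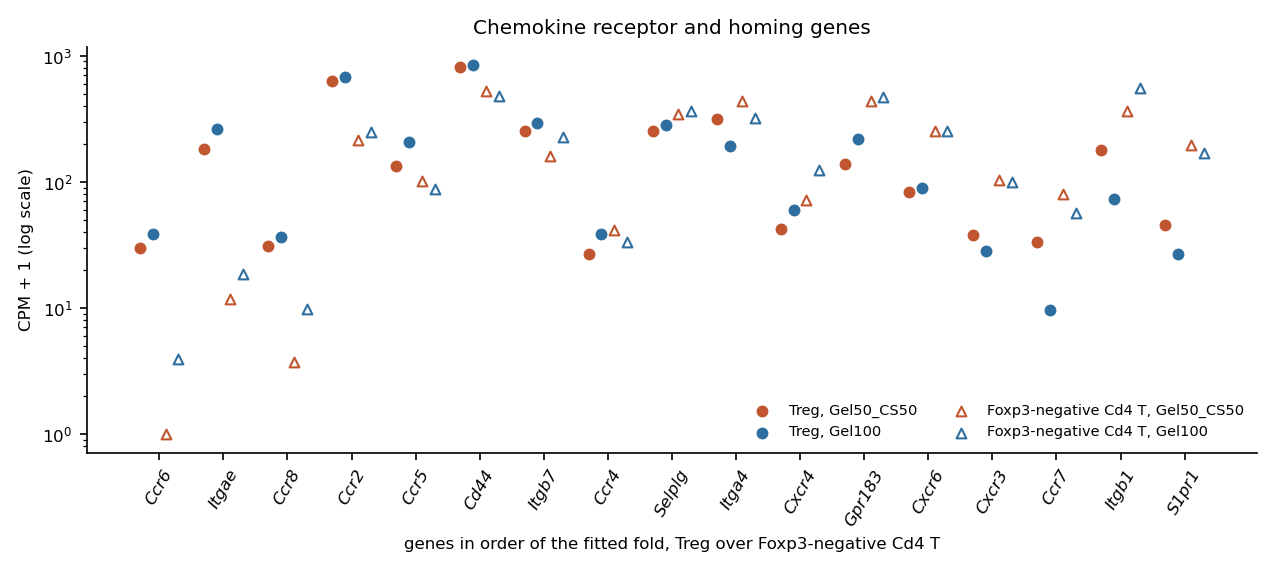
CPM plus 1 (log scale) of 17 of the 18 tested chemokine receptor and homing genes, ordered by the fitted fold, in Tregs (filled circles) and Foxp3-negative Cd4 T cells (open triangles) of each library. Itgae and Ccr2 are above both reference sums in both Treg sums, and Cxcr6, Itgb1 and S1pr1 are below them.

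Genes of naive, recirculating T cells were mostly lower in Tregs. Of 11 genes 10 were tested, 7 were lower and 1 was higher, at a median log2 fold of -1.91. Tcf7, the gene of the transcription factor TCF-1, was found in 0 of 63 Gel50_CS50 and 3 of 63 Gel100 Tregs, against 26 of 38 and 55 of 81 reference cells, and a count of 0 in 63 cells allows a share of cells with a UMI of up to 5.69%, which does not limit the share that expresses the gene. It had 4 UMIs in all Tregs and 236 in the reference cells (log2 fold -6.42, SE 0.53, edgeR adjusted p 3.1e-04). Its relative Lef1 was kept in part, at 114 and 143 CPM in Tregs, against 813 and 555 CPM (log2 fold -2.47, SE 0.23, edgeR adjusted p 5.1e-04). Bach2, a repressor of effector differentiation, was at 68.2 and 130.4 CPM, against 1082 and 608 CPM (log2 fold -3.15, SE 0.36, edgeR adjusted p 0.0011). S1pr1, the receptor by which T cells leave tissue, was at 44.8 and 25.8 CPM, against 196 and 168 CPM (log2 fold -2.45, SE 0.27, edgeR adjusted p 9.5e-04). Satb1 (-1.96, 2.6e-04), Ccr7 (-1.87, 0.02) and Klf2 (-1.12, 0.015) completed the lower group, while the interleukin-7 receptor Il7r did not pass (-0.30, 0.21). DESeq2 called 5 of the 7, and against all Foxp3-negative cells of the gate 2 of the 7 remained.

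The genes with the lowest folds included markers of other T cell programs. Zbtb16 (PLZF), the factor of innate-like T cells, had 0 UMIs in Tregs and 243 in the reference cells, in 18.4% of them in Gel50_CS50 and 18.5% in Gel100. It was at least 123-fold lower at a floor of 3 UMIs (edgeR adjusted p 1.6e-04, DESeq2 0.13). Without these Zbtb16-positive reference cells 713 genes were higher and 680 lower, and 986 of the 1096 calls remained. Cd40lg, by which helper T cells activate B and dendritic cells, stood at 4.48 and 8.6 CPM in Gel50_CS50 and Gel100 Tregs, against 258 and 184 CPM in the reference cells (log2 fold -5.16, SE 0.37, edgeR adjusted p 2.4e-04). Il12rb2, the interleukin-12 receptor chain of type 1 helper cells, stood at 6.71 and 5.73 CPM, against 196 and 369 CPM (log2 fold -5.46, SE 0.34, edgeR adjusted p 1.1e-04). Tnfsf8 (CD30 ligand), Cd96, Pde3b, Atp8b4 and the unannotated transcripts Gm2682 and 4933406I18Rik had log2 folds of -6.13, -4.45, -5.17, -5.22, -4.57 and -4.90.

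Effector cytokine genes were mostly too low to test. Of 14 effector genes 5 were tested, 0 were higher and 3 lower, namely Cd40lg, Ifng and Il4. Ifng had 3 UMIs in Tregs, from 2 Gel100 cells, and 56 in the reference cells (log2 fold -4.57, SE 0.68, edgeR adjusted p 0.0037). Il4 had no UMI in Tregs, and stood at 27.2 and 20.7 CPM in the reference cells. Tbx21 (T-bet) and Tnf did not pass, at -0.37 (0.5) and -0.45 (0.28). Il5 reached 61.6 CPM in Gel100 Tregs and 0 in Gel50_CS50, but 95.3% of those 43 UMIs came from 1 cell.

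Signalling genes were split. Of 22 genes for cytokine receptors and signalling, all tested, 4 were higher and 7 lower in Tregs. Higher were Cish (1.18, 0.02) and Socs2 (1.40, 0.017), both targets of STAT5, with Jak3 (1.40, 0.049) and Stat3 (0.80, 0.0085), and DESeq2 called 1 of these 4. The survival gene Bcl2 was at 12.3 and 57.3 CPM in Tregs, against 348 and 512 CPM (log2 fold -3.83, SE 0.34, edgeR adjusted p 4.0e-04), while its relative Mcl1 did not pass (-0.21, 0.5). The TGF-beta receptor Tgfbr2 was at 125 and 132 CPM, against 367 and 457 CPM (log2 fold -1.75, SE 0.19, edgeR adjusted p 8.9e-04). Of 13 tested genes for antigen receptor and NF-kB signalling 4 were higher (Rel at 1.05, Nfkbia at 0.79, Traf1 at 0.73 and Nfkb1 at 0.61) and 2 lower (Cd28 at -1.03 and Tnfaip3 at -0.52). DESeq2 called 2 of the 4 and 1 of the 2, and lost Traf1 (0.13), Nfkb1 (0.1) and Tnfaip3 (0.24), which was also lost without mixed barcodes (edgeR adjusted p 0.056). Of 11 tested immediate-early and heat-shock genes, which also respond to tissue digestion, 3 were higher (Jun at 1.27, Fos at 1.18 and Dusp1 at 0.89) and 0 lower. DESeq2 called 1 of these 3, Fos. Against all Foxp3-negative cells of the gate 0 were higher and 5 lower, with Fos at -1.24 (edgeR adjusted p 0.033) and Jun at -1.83 (0.014). Interferon-stimulated genes were close to the background, with 1 higher and 2 lower (Ifit2 and Ifit3) of 18.

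Cell cycle genes were mostly higher in Tregs. A cell counted as cycling with at least 3 UMIs over Mki67, Top2a, Birc5, Cdk1, Ccnb2 and Rrm2. Cycling cells were 22 of 63 Tregs (34.9%) in Gel50_CS50 and 17 of 63 (27.0%) in Gel100, against 0 of 38 and 10 of 81 (12.3%) of the reference cells. Of 12 cell cycle genes 9 were higher and 0 lower, with Mki67 at 512 and 225 CPM in Tregs, against 13.6 and 81.1 CPM (log2 fold 2.58, SE 0.58, edgeR adjusted p 0.021). DESeq2 called 2 of the 9, and against all Foxp3-negative cells 0 remained. Cycling Tregs had medians of 15346.5 UMIs in Gel50_CS50 and 15980 in Gel100, against 9815 and 7937.5 in the others. Leaving out cycling cells, which takes out the cells that define the list, left the Treg identity count at 10 higher.

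Within the Tregs, the repair-associated genes were spread over overlapping sets of cells. Il1rl1, Areg and Klrg1 were found together in 33.3% of Gel50_CS50 and 25.4% of Gel100 Tregs, and none of the 3 in 6.35% and 9.52%. Il10 was found in 30.2% of Tregs in each library, against 14.5% and 12.5% of macrophage-like cells. Areg summed to 1075 CPM in the 41 Gel50_CS50 Tregs with an Il1rl1 UMI, against 699 CPM in the 22 without one. In Gel100 it summed to 1192 CPM in 28 Tregs with an Il1rl1 UMI, against 479.6 CPM in 35 without. Gata3, a factor upstream of Il1rl1 in type 2 cells, was at 295 CPM in the Il1rl1-positive Tregs of both libraries, against 144 CPM in the Il1rl1-negative Tregs of Gel50_CS50 and 182 CPM in those of Gel100. Both genes thus stood higher in the Il1rl1-positive cells of each library. All 4 mixed Gel50_CS50 Tregs were Il1rl1-positive. Without them the 37 Il1rl1-positive Gel50_CS50 Tregs held 1216 CPM of Areg and 341 CPM of Gata3. Klrg1 was found in similar shares of both kinds of Treg, at 68.3% of Il1rl1-positive and 72.7% of Il1rl1-negative cells in Gel50_CS50, and at 71.4% and 68.6% in Gel100. Summed Il10 took opposite orders in the 2 libraries, with 65.1 CPM in Il1rl1-positive against 214 CPM in Il1rl1-negative Tregs of Gel50_CS50, and 406 CPM against 91.1 CPM in Gel100. These sums rest on few cells, and the shares of cells with an Il10 UMI did not change order. In Gel50_CS50 they were 31.7% (13 of 41) of Il1rl1-positive and 27.3% (6 of 22) of Il1rl1-negative Tregs. In Gel100 they were 32.1% (9 of 28) and 28.6% (10 of 35). The Il1rl1-positive cells had the lower median depth, at 9427 UMIs against 13874.5 in Gel50_CS50, and 8439.5 UMIs against 9669 in Gel100. Of the cycling Tregs, 13 of 22 in Gel50_CS50 and 4 of 17 in Gel100 were Il1rl1-positive, against 28 of 41 and 24 of 46 others. Areg summed to 792 and 429 CPM in cycling Tregs of Gel50_CS50 and Gel100, against 1063 and 1022 CPM in the others. The parts of depth and of cycling in these values were not tested. These are values over cells of 1 library each and carry no test.

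The last comparison set the Tregs of the Gel50_CS50 scaffold against those of Gel100. With 1 library of pooled mice per scaffold there is no test and no replicate check, and the intervals are exact 95% counting intervals of the ratio of CPM. Of 3786 genes that averaged 50 CPM or more over both libraries, 54 (1.43%) had an interval wholly above 1.5-fold and 65 (1.72%) wholly below, at a median log2 ratio of -0.06. Without the 6 mixed barcodes the counts were 30 and 45 of 3748. Of 11 measured Treg identity genes, 0 lay wholly beyond 1.5-fold in either direction, at a median of -0.10. Il2ra had 2559.9 CPM in the Gel50_CS50 and 1849 CPM in the Gel100 Tregs (log2 ratio 0.47, 0.37 to 0.57) and Ctla4 1294 CPM in the Gel50_CS50 and 1988 CPM in the Gel100 Tregs (log2 ratio -0.62, -0.73 to -0.51), and these 2 intervals lie on opposite sides of 0. Tnfrsf4 (log2 ratio -0.09, -0.27 to 0.09), Areg (log2 ratio 0.28, 0.12 to 0.44) and Klrg1 (log2 ratio -0.04, -0.29 to 0.22) stayed within 1.5-fold.

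Il1rl1 was higher in the Gel50_CS50 Tregs. It had 367 CPM in the Gel50_CS50 and 136 CPM in the Gel100 Tregs (log2 ratio 1.43, 1.10 to 1.78), and 8.54% and 14.7% of these UMIs came from the top cell. It was found in 65.1% of Gel50_CS50 Tregs (52.0 to 76.7) and 44.4% of Gel100 Tregs (31.9 to 57.5), and after thinning to 3000 UMIs in 46.0% (33.4 to 59.1) and 25.8% (15.5 to 38.5). The level without mixed barcodes was 397 CPM in Gel50_CS50 and 146 CPM in Gel100. The Foxp3-negative Cd4 T cells also held more in Gel50_CS50, at 141 CPM against 28 CPM in Gel100, while macrophage-like cells had 8.18 and 6.04 CPM. Of the 16 tissue and repair genes, Il1rl1 and Penk were the 2 beyond 1.5-fold. Penk had 166 CPM in the Gel50_CS50 and 50.1 CPM in the Gel100 Tregs (log2 ratio 1.72, 1.18 to 2.30), with 33.8% and 42.9% of the UMIs from 1 cell of each library. Without cycling Tregs the Penk log2 ratio was 0.84.

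Cell cycle genes were higher in Gel50_CS50 Tregs. Of 8 measured, 5 were beyond 1.5-fold and 0 below, with a median log2 ratio of 1.04. Mki67 had 512 CPM in the Gel50_CS50 and 225 CPM in the Gel100 Tregs (log2 ratio 1.19, 0.92 to 1.46), Top2a had 423 CPM in the Gel50_CS50 and 195 CPM in the Gel100 Tregs (log2 ratio 1.12, 0.83 to 1.41), and the ribonucleotide reductase subunit Rrm2 had 101 CPM in the Gel50_CS50 and 30.1 CPM in the Gel100 Tregs (log2 ratio 1.74, 1.05 to 2.50). Hist1h1b, Ube2c, Kif11 and Cdca8, 4 of the 12 highest genes of the comparison, also act in replication or mitosis, and Kif11 had 116 CPM in the Gel50_CS50 and 31.5 CPM in the Gel100 Tregs (log2 ratio 1.88, 1.21 to 2.62). The share of cycling Tregs was 34.9% in Gel50_CS50 (23.3 to 48.0) and 27.0% in Gel100 (16.6 to 39.7), and these intervals overlap. Thinned to 3000 UMIs, 13 of 63 Gel50_CS50 Tregs (20.6%, 11.5 to 32.7) and 3 of 62 Gel100 Tregs (4.84%, 1.01 to 13.5) were cycling. The direction was the opposite in Foxp3-negative Cd4 T cells, where the list had a median of -1.12 and cycling cells were 0 of 38 in Gel50_CS50 and 10 of 81 in Gel100, and the same in macrophage-like cells (median 0.85). Without cycling Tregs, Mki67 was left at 19.5 CPM in Gel50_CS50 and 52.8 CPM in Gel100, a log2 ratio of -1.44. Mki67 UMIs are part of the cut that removes these cells, so that value is in part set by the cut. The log2 ratio of Pclaf, which is not part of the cut, was -0.63.

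Interferon-stimulated genes were lower in Gel50_CS50 Tregs. All 16 measured had a ratio below 0, 7 of them wholly beyond 1.5-fold, with a median log2 ratio of -0.87. Irf7, which drives interferon production, had 98.5 CPM in the Gel50_CS50 and 262 CPM in the Gel100 Tregs (log2 ratio -1.41, -1.80 to -1.04). Ifit3, an antiviral effector, had 35.8 CPM in the Gel50_CS50 and 93.1 CPM in the Gel100 Tregs (log2 ratio -1.38, -2.04 to -0.75), the guanylate-binding protein Gbp6 had 151 CPM in the Gel50_CS50 and 299 CPM in the Gel100 Tregs (log2 ratio -0.99, -1.31 to -0.67), and the nucleic acid sensor Zbp1 had 226 CPM in the Gel50_CS50 and 408 CPM in the Gel100 Tregs (log2 ratio -0.85, -1.12 to -0.59). Plasmacytoid dendritic cell markers, whose cells are rich in Irf7 and Bst2, summed to 145 CPM in Gel50_CS50 and 424 CPM in Gel100 Tregs, with all 4 detected in both. Without the mixed barcodes the list median was -0.75 and 1 of the 16, Ifit3, whose reads may be shared with Ifit3b, was wholly beyond 1.5-fold, at -1.25 (-1.93 to -0.60), with Irf7 at -1.002 (-1.43 to -0.58). The sign of Ifi44 turned, at 0.29 (-0.77 to 1.38). The same list had a median of -1.09 in Foxp3-negative Cd4 T cells and -1.14 in macrophage-like cells, where all 16 were below 0.

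Chemokines and other genes induced by interferon were among the 12 lowest. Cxcl10, a ligand of Cxcr3, had 149 CPM in the Gel50_CS50 and 616 CPM in the Gel100 Tregs (log2 ratio -2.05, -2.34 to -1.77), in 17 and 25 cells. Macrophage-like cells of Gel50_CS50 held 151 CPM and those of Gel100 299.9 CPM, and the part of stray RNA in the ratio was not tested. Gbp10 had 24.6 CPM in the Gel50_CS50 and 117 CPM in the Gel100 Tregs (log2 ratio -2.25, -3.00 to -1.56), and the chemokine Ccl5 had 64.9 CPM in the Gel50_CS50 and 188 CPM in the Gel100 Tregs (log2 ratio -1.53, -2.004 to -1.08). Ifit3b and Ifit3, Gbp10 and Gbp6, and Ly6c1 and Ly6c2 are pairs of near-identical genes, so the counts of all these genes are uncertain. Rpl29, Nars2, Gng12, Mpeg1, Trf and Abcg1 completed the lowest 12, at log2 ratios between -1.99 and -1.56. Mpeg1, a macrophage gene, stood at 5.31 and 14 CPM without mixed barcodes, against 32.4 and 105 CPM with them.

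Checkpoint genes leaned to lower levels in Gel50_CS50 Tregs, with 3 of 13 beyond 1.5-fold lower and 1 higher. Gzmb had 371 CPM in the Gel50_CS50 and 663 CPM in the Gel100 Tregs (log2 ratio -0.84, -1.04 to -0.63), Lag3 had 47 CPM in the Gel50_CS50 and 107 CPM in the Gel100 Tregs (log2 ratio -1.19, -1.77 to -0.63), and the ligand Cd274 (PD-L1) had 176 CPM in the Gel50_CS50 and 344 CPM in the Gel100 Tregs (log2 ratio -0.97, -1.27 to -0.67). Without mixed barcodes 0 of the 3 stayed wholly beyond 1.5-fold, at -0.74 (-0.95 to -0.53), -1.03 (-1.67 to -0.41) and -0.70 (-1.02 to -0.39), all still below 0. Il10 had 122 CPM in the Gel50_CS50 and 218 CPM in the Gel100 Tregs (log2 ratio -0.84, -1.20 to -0.47). The higher gene was Nt5e, with 122 CPM in the Gel50_CS50 and 44.4 CPM in the Gel100 Tregs, of which 76.1% of the Gel50_CS50 UMIs came from 1 cell. In homing, Itgb1 was the 1 of 12 beyond 1.5-fold, with 179 CPM in the Gel50_CS50 and 71.6 CPM in the Gel100 Tregs (log2 ratio 1.32, 0.86 to 1.81), and without mixed barcodes it was 1.04 (0.51 to 1.61). Lsmem1, a membrane protein gene, had 90.6 CPM in the Gel50_CS50 and 15.8 CPM in the Gel100 Tregs (log2 ratio 2.52, 1.61 to 3.58), and the Foxp3-negative Cd4 T cells held 133 CPM of it in Gel50_CS50 and 25.1 CPM in Gel100.

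The highest ratios belonged to genes of the extracellular matrix and 2 genes that stromal cells share. Most Gel50_CS50 UMIs of each of these genes were in 1 barcode. Sparc, Bgn, Col1a2, Col1a1, Col3a1, Cd63 and Anxa1 were the 7 highest of the 12 named genes. Between 59.3% (Anxa1) and 95.1% (Col1a2) of the Gel50_CS50 UMIs of each came from its top barcode, which was not the same for all. Without the Tregs that Scrublet marked, the log2 ratio of Anxa1 fell from 2.70 to 1.495. That of Col1a2 was 6.14 with them and 6.22 without. Col1a1 had 650.0 CPM in the Gel50_CS50 and 12.9 CPM in the Gel100 Tregs, and 43.8 and 14 CPM without mixed barcodes. Col3a1 had 917 CPM in the Gel50_CS50 and 24.4 CPM in the Gel100 Tregs, and 82.2 and 26.4 CPM without them, a log2 ratio of 1.64 (0.85 to 2.51). In the Foxp3-negative Cd4 T cells, Col3a1 stood at 68 CPM in Gel50_CS50 and 32.5 CPM in Gel100. Stromal markers were all detected in the Tregs of both libraries, and summed to 2557 CPM in Gel50_CS50 and 53.0 CPM in Gel100, against 212 and 91.5 CPM in the Foxp3-negative Cd4 T cells.

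**Figure D5:**
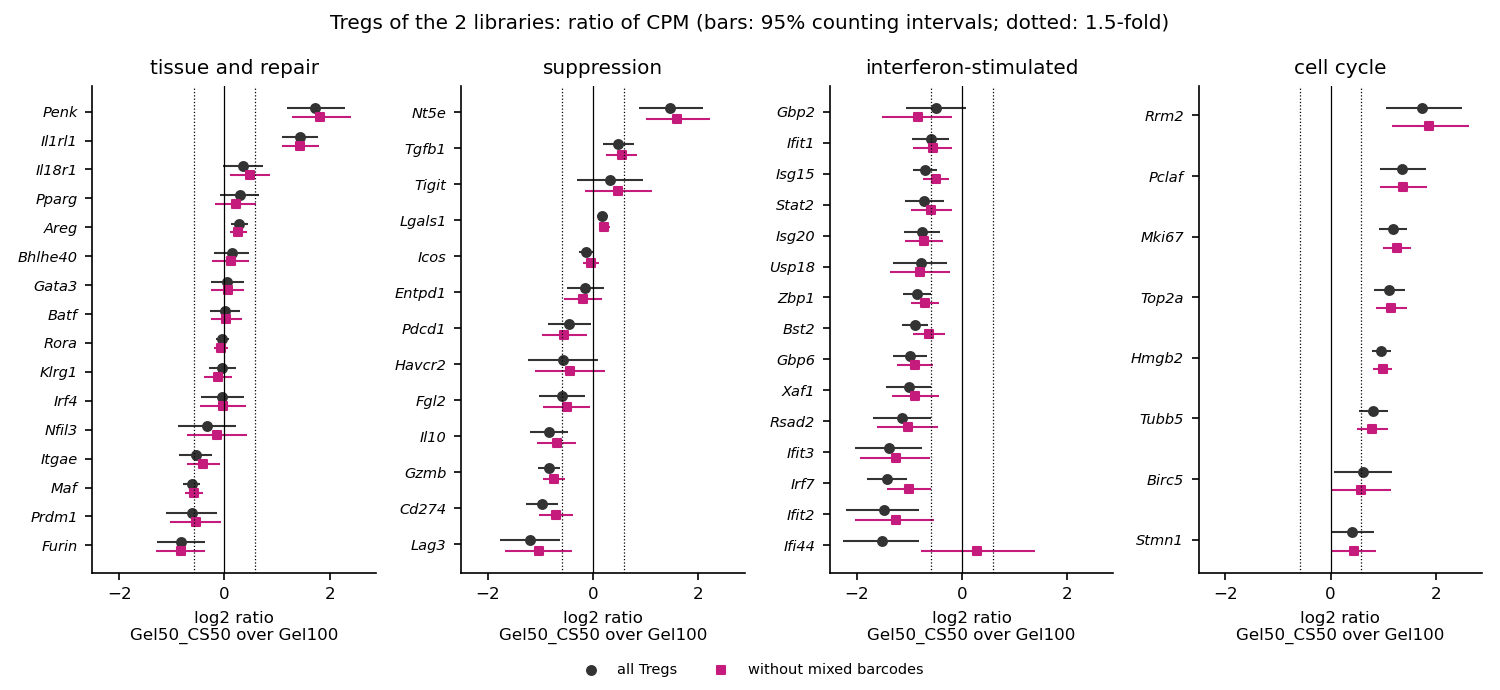
Log2 ratio of CPM in Gel50_CS50 over Gel100 Tregs (x axis) for the measured genes of 4 lists (15 of the 16 interferon-stimulated genes), with 95% counting intervals, for all Tregs (black circles) and without the 6 mixed barcodes (pink squares); dotted lines mark 1.5-fold. Il1rl1, Penk and the cell cycle genes lie to the right, and the interferon-stimulated genes lie to the left except Ifi44 without mixed barcodes.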

How the data were processed

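Single-cell RNA-seq was read from 2 libraries, Gel50_CS50 and Gel100, each of cells from 5 pooled mice. The deposited matrices hold raw, whole-number UMI counts for each gene and barcode. Per the file headers they come from Cell Ranger 6.0.2, and per the submitters' processing notes the build was mm10. Viable cells were sorted before loading on a 10x 3' kit, per the labels' protocols. No source used here states how reads of near-identical genes were assigned. Of 32285 genes, 99.6% matched GENCODE vM21 (mm10), which gave coordinates, and 38 symbols with several identifiers were not merged.

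From the counts, Tregs were gated by UMIs. Doublets were called with Scrublet in scanpy 1.11.5 (expected rate 0.06) and kept. UMIs were summed per library and cell group and scaled to 1000000 (CPM). Ratios between scaffolds have exact conditional binomial 95% intervals and no test. A gene counted as measured at a mean of 50 CPM or more. Tregs were compared with Foxp3-negative Cd4 T cells by edgeR 4.0.16 (R 4.3.3; TMM, filterByExpr, quasi-likelihood F-test, library as a block, adjusted p under 0.05), with DESeq2 1.42.0 as an alternative. The edgeR script was tested on simulated counts. Fold bounds use a floor of 3 UMIs. Thinning drew 3000 UMIs per cell (seed 7).

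The members, the 11 gene lists and the tests were chosen with earlier results of these data known. Every listed gene could be named, except some that are counted with their lists but not reported by name or drawn here, with the 15 highest and 10 lowest called genes against Foxp3-negative Cd4 T cells (mean of 50 CPM or more, past 1.5-fold in each library) and the 12 highest and 12 lowest ratios between scaffolds (interval wholly beyond 1.5-fold, UMIs in at least 10% of the Tregs of the higher library). Gate genes, receptor and immunoglobulin segments and mitochondrial genes were left out. Il5 was named after its values were seen. Mixed barcodes (10 or more UMIs of another type's markers), cycling cells and Zbtb16-positive reference cells were left out, and gate cells with a T cell receptor UMI were used as a denominator, as alternatives chosen after seeing the data. Replicate numbers do not pair samples, since each scaffold has 1. Tables and figures were made with scipy 1.17.1, numpy 2.4.6, matplotlib 3.10.9 and pandas 2.3.3 under Python 3.11.15.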

Additional observations from a re-analysis of the deposited data

Results flagged for a closer look

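Egr1, an immediate-early gene induced by antigen receptor and growth factor signals and by tissue handling, stood on opposite sides of 0 in the 2 libraries when Tregs were set against Foxp3-negative Cd4 T cells. In Gel50_CS50 the log2 ratio was 0.77 (counting interval 0.08 to 1.51), with 102 CPM in Tregs against 59.8 CPM in the reference cells. In Gel100 it was -0.85 (-1.52 to -0.20), with 45.8 CPM in Tregs against 82.6 CPM. The difference between the libraries was not tested. Macrophage-like cells held 998 CPM in Gel50_CS50 and 769 CPM in Gel100, and the part of stray RNA in either ratio was not tested.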

How the results depend on the processing

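The Treg share kept its value within counting error under the alternatives run, except that thinning to 3000 UMIs gave 0.552% of all cells in Gel50_CS50, and that gate cells with a T cell receptor UMI as the denominator gave 32.0% in Gel50_CS50 and a difference of 11.3 points. For Tregs against Foxp3-negative Cd4 T cells, 550 genes were higher and 546 lower of 7606 tested. DESeq2 gave 195 and 238 (of 6279 genes tested), and thinning 324 and 359 (of 3822). No filter beyond 1 UMI gave 860 higher and 695 lower of 16726. All 507 Foxp3-negative cells of the gate as the reference gave 601 higher and 1354 lower of 11759. The sets of genes tested thus differ between these counts. The fit without the replicate block gave 563 and 498. Those 507 cells held 34388 CPM of stromal markers in Gel50_CS50 and 15794 CPM in Gel100. Against them, among genes called in either fit, log2 folds took the other sign for Cd81 (-0.15), Lrrc32 (-0.11), Icos (1.68), Ccr4 (1.63), Itga4 (0.44), Cd44 (-0.68), Tubb5 (-0.29), Cd28 (0.70), Tnfaip3 (0.25), Stat5b (0.81), Il6ra (0.31), Il21r (0.97), Il27ra (1.35), Ifngr1 (0.79), Fos (-1.24), Jun (-1.83) and Atf3 (-1.72), and without cycling cells for Hmgb2 (-0.72). The cause was not tested.

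Between scaffolds, 54 genes were higher and 65 lower beyond 1.5-fold of 3786 measured. Thinning gave 15 and 26 (of 3764), and leaving out mixed barcodes 30 and 45 (of 3748). A minimum of 20 CPM gave 146 and 110 (of 6485), and no filter on CPM 404 and 157 (of 15560). Ratios turned sign for Igfbp4 (-0.23) and Ifi44 (0.29) without mixed barcodes, and for Kif11 (-0.63), Mki67 (-1.44), Hmgb2 (-0.032) and Pclaf (-0.63) without cycling Tregs. The cut on cycling Tregs uses Mki67 UMIs, so the Mki67 value there is in part set by the cut. With 63 Tregs per library and 1 library per scaffold, neither mouse nor library spread can be told apart from the scaffold.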
